A study of Xenopus laevis with 3 samples.

Results

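MiR-191 and miR-425 are microRNAs of one precursor cluster, mir-191/mir-425, and were read here in dorsal pieces of *Xenopus laevis* gastrulae. The 2 members are the rows xtr-miR-191_R+2 and xtr-miR-425-5p_R-1, out of 175 rows with a *Xenopus* name (prefix xla or xtr) and 1985 listed sequences in all. They were taken by name, as every *Xenopus* row called miR-191 or miR-425 with any letter, arm or ending, and the cluster had been selected on its levels, since the study picked it among clusters whose members were all above the uninjected level after depletion of *fry* and of *lhx1*. Levels of the pair against the uninjected library are therefore given as a description. Small RNA was sequenced from 3 libraries, all of stage 10.5. The Fry-MO library came from embryos that received 20 ng of a morpholino against *fry* in both dorsal blastomeres at the 4-cell stage, the Lhx1-AS library from embryos given 400 pg of an antisense oligonucleotide against *lhx1* at the same sites, and the uninjected library from embryos without an injection. Each library pooled 30 dorsal pieces from 3 independent experiments before RNA isolation, so there is 1 library per condition, a spread over replicates cannot be given, and p-values are left out. The injected embryos also carried a fluorescent dextran and were chosen for its signal, and with no library from a control oligonucleotide, the effect of depletion cannot be told apart from that of injecting and sorting.

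A microRNA is cut from a hairpin precursor and guides the silencing complex to messenger RNAs, mainly through its seed, the bases 2 to 8 from the 5′ end. In mammals mir-191 and mir-425 lie side by side within an intron of *DALRD3* and are transcribed together, so that both can come from the same primary transcript. Mature levels of such neighbours can still differ through processing and stability. In human tissues miR-191 is found widely, and it has been used as a reference in quantitative PCR for that reason. In fish the related cluster is mir-462/mir-731. Where the cluster lies in the *X. laevis* genome was not analysed here.

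The sequences read for the members are shown first because the later results rest on their seeds and their 3′ ends. They are given as deposited, with T for U, 5′ to 3′, and the seed is in capitals.

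xtr-miR-191_R+2: cAACGGAAtcccaaaagcagctgt
xtr-miR-425-5p_R-1: aATGACACgatcactcccgttg

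The seeds of the 2 miRNAs differ, so they do not form a seed family. MiR-191 was listed as 24 bases and miR-425-5p as 22 bases. The ending of each name gives the length against the listed mature miRNA, as R+2 for 2 bases more at the 3′ end and R-1 for 1 base less, which makes the listed forms 22 and 23 bases long. Among all 1985 sequences 3 rows carried the seed of miR-191 and 3 that of miR-425-5p. Of these, 3 begin with the whole sequence of a member and run on at the 3′ end. They are named after dog (cfa), a lizard (aca) and mouse (mmu), and are shown because reads of the same 5′ arm were counted there.

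cfa-miR-425_R+2: aATGACACgatcactcccgttgagt
mmu-miR-425-5p_R+3: aATGACACgatcactcccgttgagtt
aca-miR-191-5p_R+3: cAACGGAAtcccaaaagcagctgtat

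The 2 forms of miR-425-5p are 3 and 4 bases longer than the *Xenopus*-named row, and the form of miR-191 is 2 bases longer. A name gives the species whose listed miRNA was matched, not the organism a read came from. One more row has the seed of miR-191, the zebrafish-named miR-462 of the related fish cluster. It was picked for its seed after its values were seen.

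dre-miR-462_R+1: tAACGGAAcccataatgcagctg

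Set against miR-191 from the 5′ end without gaps, it has the same base at 18 of 23 positions. It had 5 reads with Fry-MO, 2 with Lhx1-AS and 5 without injection, too few to tell the libraries apart.

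Depth was 108041 listed reads with Fry-MO, 56026 with Lhx1-AS and 133894 without injection. Mappable reads, as the read summary of the authors gives them, put the injected libraries in the opposite order, with 2125966 for Fry-MO, 2451390 for Lhx1-AS and 3157393 without injection. The authors' normalized counts are the raw reads divided by a library size parameter, which raises the Fry-MO reads by a factor of 1.05 and the Lhx1-AS reads by a factor of 1.19 relative to the uninjected reads. *Xenopus* names took 59.4% of the listed reads with Fry-MO, 50.1% with Lhx1-AS and 42.0% without injection. Early embryo markers of *Xenopus* (miR-427, miR-428 and miR-302) were read in all 3 libraries, in 6 of 6 rows, with summed normalized counts of 17527, 22602 and 50207 in the same order. Most of these reads were of miR-427, so the sum follows this miRNA. MiR-428, with 27 raw reads with Fry-MO, had a log2 ratio to uninjected of -0.13 with Fry-MO and 1.71 with Lhx1-AS. A miR-302 row, with 12 raw reads with Fry-MO, had -0.88 and 0.65. For these log2 ratios 1 normalized count was added to each level. In whole embryo pieces, fewer cells of a type and less RNA per cell cannot be told apart. All intervals below are 95% intervals from the raw reads, by Clopper-Pearson unless named otherwise, and cover counting error of reads only. Reads amplified without molecular identifiers are not independent molecules, so the intervals may be too narrow. For some other miRNAs the raw reads are not whole numbers, and there the intervals are not exact. The deposited reads of both members are exact whole numbers in all 3 libraries.

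MiR-191 was among the most read *Xenopus* miRNAs in the depleted libraries. It had 3003 raw reads with Fry-MO, 553 with Lhx1-AS and 195 without injection. These make 3424 normalized counts with Fry-MO, 715 with Lhx1-AS and 211.8 without injection. It was highest with Fry-MO and lowest without injection. By raw reads it ranked 6 among the 148 *Xenopus* miRNAs read with Fry-MO, 7 among 149 with Lhx1-AS and 13 among 141 without injection. Over all species it ranked 10, 13 and 32 in the same order. Its share of the listed reads was 2.78% with Fry-MO (interval 2.68% to 2.88%). The share was 0.987% with Lhx1-AS (0.907% to 1.07%) and 0.146% without injection (0.126% to 0.168%). The 3 intervals are apart, so neighbours in this order differed by more than counting error.

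MiR-425-5p followed the same order with far fewer reads. It had 117 raw reads with Fry-MO, 22 with Lhx1-AS and 11 without injection, or 133.4 normalized counts with Fry-MO, 28.4 with Lhx1-AS and 11.9 without injection. It ranked 43 among *Xenopus* miRNAs with Fry-MO, 61 with Lhx1-AS and 67 without injection. Its share of the listed reads was 0.108% with Fry-MO (0.0896% to 0.130%), 0.0393% with Lhx1-AS (0.0246% to 0.0594%) and 0.00822% without injection (0.00410% to 0.0147%). Again the 3 intervals do not overlap on this scale of listed reads. That Lhx1-AS lies apart from uninjected depends on the scaling. With another library scaling, TMM, the interval of their ratio holds 1 (0.998 to 4.91). The uninjected value rests on 11 reads, which is the fewest behind any value of the members.

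**Figure D1:**
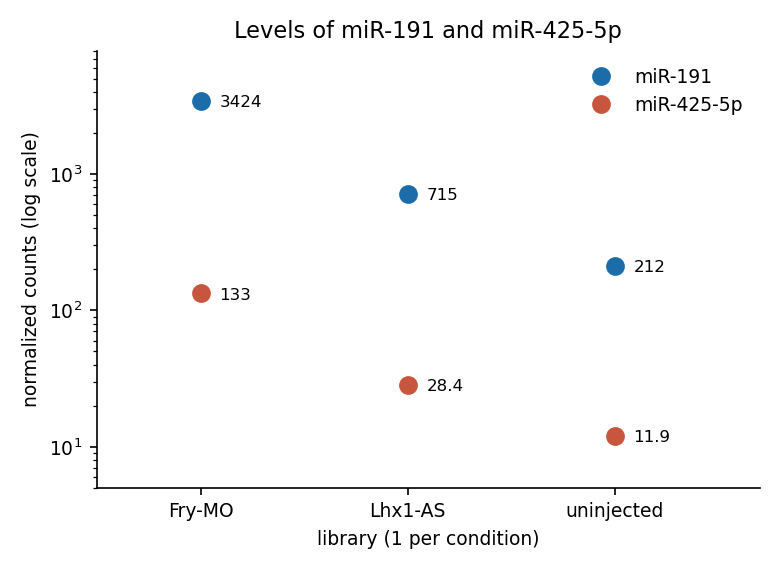
Normalized counts (log scale) of miR-191 and miR-425-5p in the Fry-MO, Lhx1-AS and uninjected libraries, 1 point per library with its value. Both are highest with Fry-MO, at 3424 and 133.4, and lowest without injection, at 211.8 and 11.9.

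Both members were higher in the Fry-MO library than in the Lhx1-AS library, by nearly the same factor. For miR-191 the ratio of Fry-MO to Lhx1-AS was 4.79 (4.37 to 5.25), from 3424 against 715 normalized counts. For miR-425-5p it was 4.69 (2.96 to 7.77), from 133.4 against 28.4. Both members thus passed a 2-fold difference, and both intervals lie above 2. Such a ratio was common in this comparison. In all, 96 *Xenopus* miRNAs reached 10 reads in one or both of these libraries. A ratio of 2 or more was found for 53 of them, which is 55.2%, and a ratio of 0.5 or less for 9.38%. The median ratio over the 96 was 2.598, and the members stood 1.84-fold and 1.81-fold above it, at ranks 30 and 31. These 2 ranks are neighbours, and a library scaling moves all 96 ratios by the same factor and leaves the ranks as they are. Counting error of the ranks was not computed, and the interval of miR-425-5p leaves room for other ranks. With the longer forms under other species names added, the ratios were 4.79 for miR-191 and 4.22 for miR-425-5p. The size of the ratio itself depends on the scaling. Scaled to the reads with *Xenopus* names it was 2.38 for miR-191 (2.17 to 2.61) and 2.33 for miR-425-5p (1.47 to 3.85), and scaled to the mappable reads 6.26 and 6.13. Under scaling by the listed reads 66.1% of the calls among the 96 were higher, against 85.5% with the authors' normalization. Blood and endothelium markers (6 rows, miR-126, miR-142, miR-144, miR-223 and miR-451) moved with the same library. Their summed normalized counts were 5434 with Fry-MO, 432 with Lhx1-AS and 390 without injection. MiR-142 held 2748 of their 4766 raw reads with Fry-MO, and miR-486 had no read under a *Xenopus* name. The part of these markers in the result was not tested. Summed markers of nerve cells (5 rows) were at 46.8, 13.8 and 13.8 in the same order, and of liver (1 row) at 22.8, 29.7 and 13.0. These rest on few raw reads, 41, 10.7 and 12.7 for nerve cells and 20, 23 and 12 for liver. Muscle markers (3 rows) had 10, 1 and 1 raw reads, too few to compare, and none under a *Xenopus* name for miR-1, miR-206 or miR-208.

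Against the uninjected library, the contrast by which the cluster was picked, the ratios of the 2 members lay further apart, within overlapping intervals. The ratio of Fry-MO to uninjected was 16.2 for miR-191 (14.0 to 18.8) and 11.2 for miR-425-5p (6.02 to 22.98), at ranks 15 and 24 of 93 miRNAs compared, of which 68.8% were at least 2-fold higher. The ratio of Lhx1-AS to uninjected was 3.38 for miR-191 (2.86 to 3.99) and 2.38 for miR-425-5p (1.11 to 5.44), at ranks 14 and 23 of 79, of which 32.9% were at least 2-fold higher. Scaled to the listed reads 50 of the 79 were at least 2-fold higher and 0 lower, against 26 and 5 with the authors' normalization. Both members were at least 2-fold higher in both comparisons, but the interval of miR-425-5p with Lhx1-AS starts at 1.11 and holds 1 with TMM scaling (0.998 to 4.91). Scaled to the listed reads this ratio was 4.78 (2.22 to 10.9). The median ratio of all miRNAs compared was 4.04 with Fry-MO and 1.28 with Lhx1-AS. Relative to these medians miR-191 stood 4.00-fold higher with Fry-MO and 2.65-fold higher with Lhx1-AS, and miR-425-5p 2.77-fold and 1.87-fold higher. Rows named after placental mammals took 13.9% of the listed reads with Fry-MO, 12.6% with Lhx1-AS and 1.97% without injection, and whether this bears on the members was not tested.

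The ratio of the members to each other needs no scaling, as both are read in the same library. The Fry-MO library had 25.7 reads of miR-191 for each read of miR-425-5p (21.3 to 31.1), the Lhx1-AS library 25.1 (16.4 to 40.4) and the uninjected library 17.7 (9.69 to 36.1). All 3 intervals overlap. Reads of different miRNAs are not molar amounts, so the 3 ratios are set against each other only. The ratio with Fry-MO was 1.02 times that with Lhx1-AS (exact conditional interval 0.611 to 1.64). It was 1.45 times that of the uninjected library (0.692 to 2.75), and the ratio with Lhx1-AS was 1.42 times that of the uninjected library (0.609 to 3.12). All 3 intervals of these pairwise comparisons hold 1. A change in the ratio was thus not detectable at this depth. Against uninjected, a rise of up to 2.75-fold with Fry-MO or 3.12-fold with Lhx1-AS lies within the intervals. So does a fall to 0.692 or 0.609 times the uninjected ratio. The 11 reads of miR-425-5p in the uninjected library limit both most, and its 22 reads with Lhx1-AS widen the second.

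**Figure D2:**
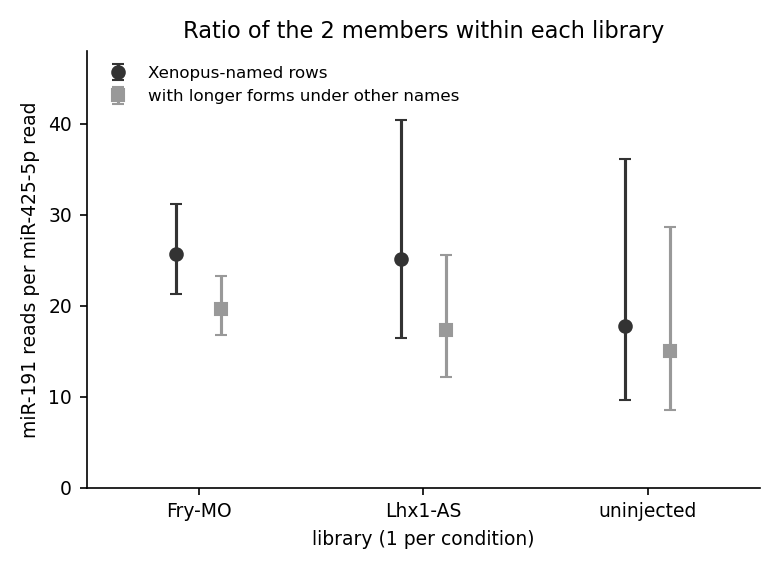
Reads of miR-191 per read of miR-425-5p in each library, with exact 95% counting intervals, for the *Xenopus*-named rows (circles) and with the longer forms under other names added (squares). The circles lie at 25.7, 25.1 and 17.7, and the intervals of the 3 libraries overlap.

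Neighbours of other clusters that the study selected were set beside this pair in the comparison of Fry-MO with Lhx1-AS. In mir-191/mir-425 the higher ratio was 1.02 times the lower. In 6 other clusters with at least 2 members compared, the highest ratio was 1.04 to 4.30 times the lowest, with a median of 3.28. These spreads are not fully alike, since clusters with 3 rows compared have more room for a spread than a pair. Some members also have wide intervals, as miR-96 at 49.4 (8.51 to 1985) and miR-200b at 1.21 (0.444 to 3.47). The pair miR-99 and let-7c was as even, with ratios of 1.21 (1.02 to 1.43) and 1.25 (1.02 to 1.54), but both ratios were lower than those of miR-191 and miR-425-5p. The pair miR-143 and miR-145, known from smooth muscle, was uneven, with 9.56 (7.55 to 12.3) and 2.22 (1.35 to 3.78). In mir-199a/mir-214 the 2 arms of miR-199a differed, with 1.47 (1.37 to 1.57) for the 5p arm and 5.11 (4.42 to 5.93) for the 3p arm. MiR-214, at 5.44 (2.94 to 11.0), lay near the 3p arm, so the spread of this cluster came from the arms of miR-199a. Whether evenness differs between clusters was not tested, and all of these clusters were selected on the same libraries.

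**Figure D3:**
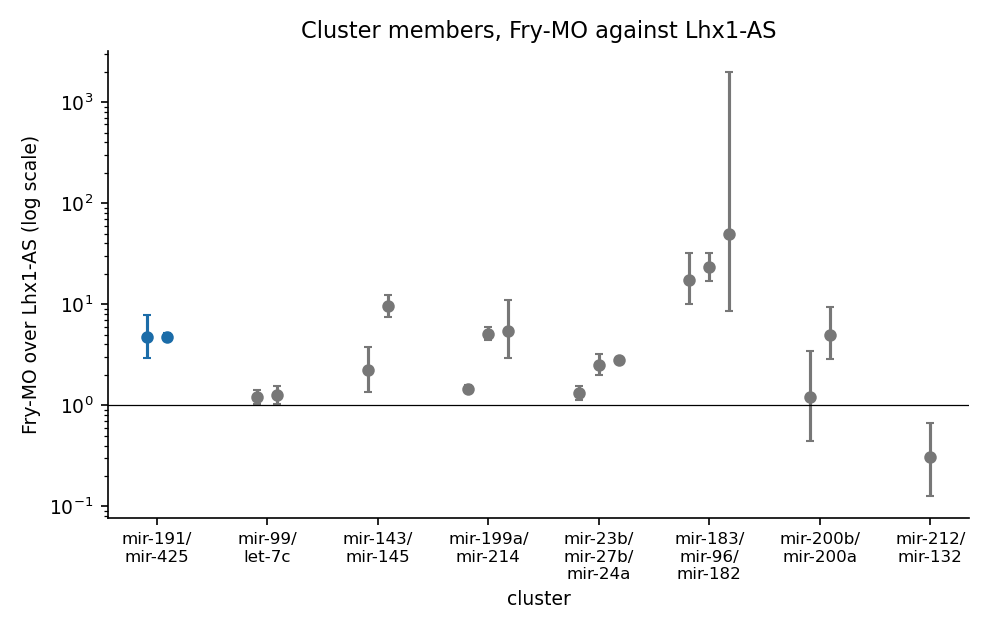
Ratio of Fry-MO to Lhx1-AS (log scale) for the members of 8 clusters with 10 or more reads in one or both of the libraries, with 95% counting intervals. Each point is 1 miRNA sequence, and the line marks a ratio of 1. MiR-191 and miR-425-5p (blue) lie at 4.79 and 4.69, while miR-143 and miR-145 lie at 9.56 and 2.22.

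Counted from its own *Xenopus*-named row, miR-425-5p had a larger share of reads in longer forms than miR-191. Over the rows that share the first 20 bases of miR-425-5p, the Fry-MO library had 36 of 153 reads in the 2 longer forms, or 23.5% (17.1% to 31.1%). The Lhx1-AS library had 10 of 32, or 31.2% (16.1% to 50.01%), and the uninjected library 2 of 13, or 15.4% (1.92% to 45.4%). These intervals overlap, but the share of longer forms was not compared between libraries directly. With only 32 reads for Lhx1-AS and 13 without injection, the intervals are wide and leave room for a large difference. For miR-191 the longer form held 9 of 3012 reads with Fry-MO, or 0.299% (0.137% to 0.566%), and 2 of 555 with Lhx1-AS, or 0.360% (0.0437% to 1.30%). The uninjected library had 0 of 195 reads there, which allows a share of up to 1.54% (upper bound of the exact interval 1.87%). Within the Fry-MO and the Lhx1-AS library the intervals of the 2 miRNAs are apart, and in the uninjected library they nearly meet, with a lower bound of 1.92% for miR-425-5p. For other miRNAs the longer forms were taken as rows that begin with the whole sequence of the miRNA. Among 74 *Xenopus* miRNAs with at least 50 reads over the libraries and at least 10 in the Fry-MO library on this count, 39 had no read in a row that extends them. MiR-425-5p ranked 4 and miR-191 ranked 30 by the share of longer forms. This ranking was added after the data were seen. The *Xenopus*-named row of miR-425-5p is 1 base shorter than the listed form, and the row of miR-191 2 bases longer. Against the listed forms, the miR-191 row is thus itself a longer form. The contrast between the 2 miRNAs and their ranks therefore depend on the row that longer forms are counted from. The sources used here do not give how reads with different ends were joined into a row.

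**Figure D4:**
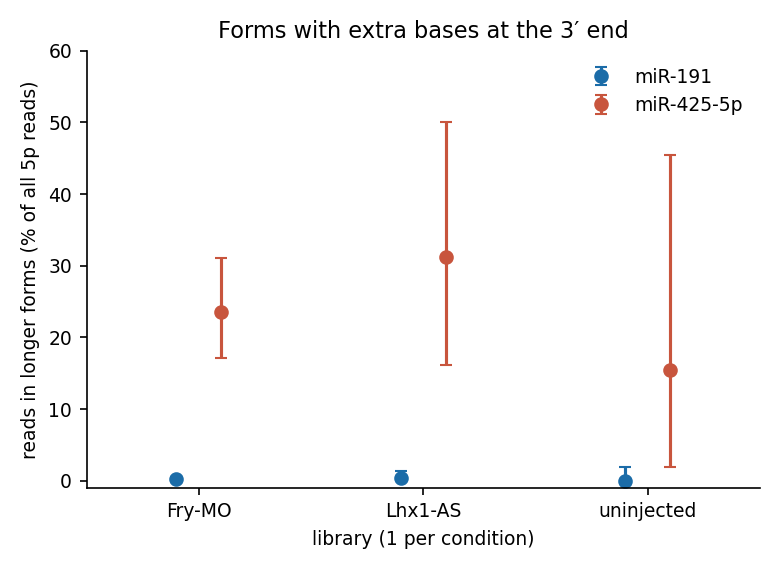
Share of the 5p reads of miR-191 and of miR-425-5p listed in forms longer at the 3′ end than their *Xenopus*-named row. Shares are in percent, by library, with exact 95% counting intervals. The row of miR-191 is itself 2 bases longer than its listed form, and that of miR-425-5p 1 base shorter. MiR-425-5p lies at 23.5%, 31.2% and 15.4%, and miR-191 below 1% in all 3 libraries.

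With the longer forms added, miR-425-5p had 153 reads with Fry-MO, 32 with Lhx1-AS and 13 without injection. The ratio of miR-191 to miR-425-5p then became 19.7 with Fry-MO (16.7 to 23.3), 17.3 with Lhx1-AS (12.1 to 25.6) and 15 without injection (8.57 to 28.7). The injected libraries lie closer to the uninjected one on this count, while Fry-MO and Lhx1-AS lie further apart, with pairwise ratios of 1.14 for Fry-MO to Lhx1-AS (0.742 to 1.69), 1.31 for Fry-MO to uninjected (0.671 to 2.37) and 1.16 for Lhx1-AS to uninjected (0.545 to 2.32). All of these intervals still hold 1.

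Few reads were listed for the opposite arms of both hairpins, and only under names of other species. Whether a *Xenopus* arm unlike these rows went unlisted was not tested. A hairpin yields 2 arms, of which one is usually kept and the other degraded. MiR-425-3p was listed under a mouse name (mmu-miR-425-3p_L+1), with 3 reads with Fry-MO, 2 with Lhx1-AS and 0 without injection. MiR-191-3p was listed under a lizard name (aca-miR-191-3p_L-1_1ss22TC), with 3 reads in the Fry-MO library and 0 in each of the other libraries. All of these counts are at or below 3 reads, the limit that a count of 0 allows, so no fold is given. A further row, mml-mir-191-p5_1ss11CA, named after the macaque precursor, had 0 reads in all 3 libraries. For miR-425 in the uninjected library, with 13 reads of the 5p arm, a 3p arm at 3 reads could not be told from one at 0.

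The miRNAs whose levels moved most like those of the members were found by their distance in the plane of the log2 ratio of Fry-MO to uninjected and the log2 ratio of Lhx1-AS to uninjected. A pseudocount of 1 normalized count was used, over 72 other *Xenopus* miRNAs with at least 50 reads over the libraries. The distance rests on the 3 libraries only, and both ratios share the uninjected library. Nearest to miR-191 were miR-27a at a distance of 0.40, miR-23a (the *X. laevis*-named row) at 0.47 and miR-30e at 0.77. MiR-27a had 268 normalized counts with Fry-MO, 63.8 with Lhx1-AS and 13.9 without injection, and miR-23a 391, 119 and 24.98 in the same order. Both had larger log2 ratios with Lhx1-AS, 2.12 and 2.21, than miR-191, with 1.75. Nearest to miR-425-5p were miR-125b at 0.31, miR-199a-3p at 0.36 and miR-30e at 0.50. MiR-125b had 631 normalized counts with Fry-MO, 182.9 with Lhx1-AS and 72.8 without injection. The members themselves were 0.85 apart, so that miR-425-5p came 5th among the 73 miRNAs ordered by their distance to miR-191. The place of miR-425-5p rests on 22 reads with Lhx1-AS and 11 without injection. Its ratios to the uninjected library have wide intervals (6.02 to 22.98 with Fry-MO and 1.11 to 5.44 with Lhx1-AS). Counting error of the distances was not computed, so their order does not show that other miRNAs moved more like a member than its cluster neighbour did.

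**Figure D5:**
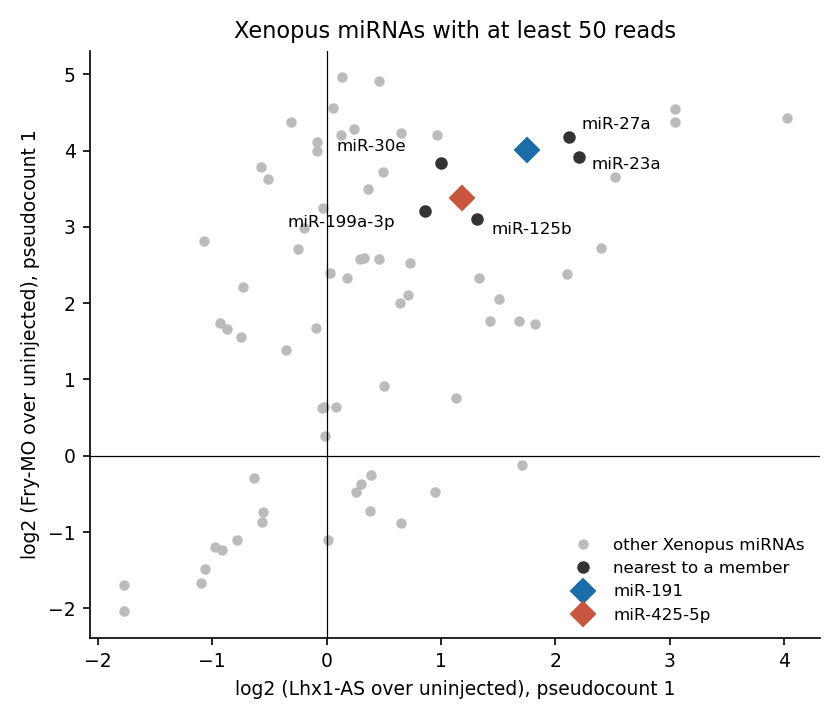
Log2 ratio to the uninjected library with Lhx1-AS (x axis) and with Fry-MO (y axis), pseudocount 1, for *Xenopus* miRNAs with at least 50 reads over the libraries, 1 point per miRNA. MiR-191 and miR-425-5p (diamonds) lie 0.85 apart in the part of the plane where both ratios are above 0, near miR-27a, miR-23a, miR-30e, miR-125b and miR-199a-3p (black).

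Few of the rows compared for other miRNAs that are widely expressed in mammals and used as references were higher with Fry-MO than with Lhx1-AS in the way of miR-191 and miR-425-5p. The list held miR-16, miR-17, miR-24, miR-25, miR-26, miR-93, miR-103, miR-106, miR-107, miR-423 and let-7a, with 20 *Xenopus* rows. In the comparison of Fry-MO with Lhx1-AS 1 of 11 rows compared was at least 2-fold higher and 2 were at least 2-fold lower, beside 55.2% and 9.38% of all 96. The 11 held no row of miR-106, miR-423 or let-7a, and more than 1 row of miR-16 and of miR-17. Any arm was taken, so they include 3p rows of miR-17 and of mir-16a. Whether these arms serve as references was not examined. The mir-16a row had 10 raw reads with Fry-MO and 11 with Lhx1-AS, at a ratio of 0.80 (0.305 to 2.08). The 2 lower rows were miR-16c, with 11 raw reads with Fry-MO and 22 with Lhx1-AS, and the miR-17-3p arm, with 10 and 25. The median log2 ratios given with this list were computed with a pseudocount of 1, while the ratios themselves were not. On this measure the median of the list was 0.09, beside 1.35 over the 96 and 2.26 for miR-191 and 2.19 for miR-425-5p. Scaled to listed reads the median of the list was -0.67, and this scaling shifts the log2 ratios of this comparison by -0.77, those of the members included. The row at least 2-fold higher was miR-26, with 1782 raw reads in the Fry-MO library, 167.5 in the Lhx1-AS library and a ratio of 9.38 (8.004 to 11.1). MiR-25 had 1.27 (1.04 to 1.55), miR-93a 1.48 (1.18 to 1.86) and miR-24a-3p, of a cluster the study selected, 1.32 (1.12 to 1.56). Against the uninjected library 6 of 11 rows were past 2-fold upward and 2 downward with Fry-MO, with a median log2 ratio of 1.61 beside 2.02 over all 93, of which 68.8% were higher. With Lhx1-AS 4 of 10 were higher and 0 lower, with a median of 0.72 beside 0.33 over all 79, of which 32.9% were higher. Both counts of higher rows lie near these shares. The ratios to the uninjected library, with Fry-MO and then with Lhx1-AS, were 13.3 and 1.41 for miR-26 and 3.44 and 2.71 for miR-25. They were 1.56 and 1.06 for miR-93a and 22.6 and 17.1 for miR-24a-3p. MiR-16b, picked after its values were seen, with 68.5 raw reads with Fry-MO, 74.5 with Lhx1-AS and 131.5 without injection, went the other way from the members, at ratios to the uninjected library of 0.547 with Fry-MO (0.402 to 0.738) and 0.674 with Lhx1-AS (0.501 to 0.903). Scaling to the listed reads, which shifts the log2 ratios of Lhx1-AS to uninjected by 1.01, turns this ratio of miR-16b above 1, to 1.35.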

How the data were processed

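The authors made TruSeq small RNA libraries, sequenced them on an Illumina GAIIx and processed the reads with ACGT101-miR. The program cut the adapter and matched reads to miRBase and to genomes of *X. laevis* and other chordates. The miRBase release, the builds and how the library size parameter was derived are not given in the sources used. The deposited raw reads per sequence are expected counts, since a read fitting several sequences is split between them. The deposited normalized signal is the raw value divided by the library size parameter (0.877 for Fry-MO, 0.773 for Lhx1-AS, 0.921 for uninjected). Of 1987 lines 2 were not analysed here.

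Ratios of normalized counts were computed for miRNAs that reached 10 raw reads in one or both libraries, with Clopper-Pearson intervals, and called at 2-fold. A count of 0 was set to 3 reads. The difference between members was an odds ratio with its exact conditional interval. No test between libraries was run. Named were both members, same-numbered rows of other species, the 3 nearest miRNAs to each member and up to 4 of the reference list. Members of other clusters, miR-462, miR-16b, miR-16c, miR-17-3p and the 3p row of mir-16a were named after their values were seen. The members, lists and rules were chosen with earlier results of these data known. The interval code was tested on simulated data. Python 3.11.15, scipy 1.17.1, pandas 2.3.3 and numpy 2.4.6 were used. Scaling factors came from rounded reads with edgeR 4.0.16 (TMM) and with DESeq2 1.42.0 (median of ratios). Alternatives were these, scaling to listed, *Xenopus*-named or mappable reads, other filters, folds and pseudocounts, and summing forms over species.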

Additional observations from a re-analysis of the deposited data

Results flagged for a closer look

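Reads of both miRNAs were also found in rows that the comparisons of *Xenopus*-named miRNAs do not use, with more reads in an injected library than in the uninjected one. The dog-named cfa-miR-425_R+2 had 32 reads in the Fry-MO library and 7 in the Lhx1-AS library, against 1 in the uninjected library. Its ratio of Fry-MO to Lhx1-AS was 4.03 (1.75 to 10.8), next to 4.69 for the *Xenopus*-named row. The lizard-named aca-miR-191-5p_R+3 had 9 reads in the Fry-MO library and 0 in the uninjected library, a ratio of 3.15 with the uninjected library set to 3 reads, and the counting interval against 0 reads starts at 2.07. The mouse-named mmu-miR-425-5p_R+3 had 4 reads in the Fry-MO library and 3 in the Lhx1-AS library, against 1 in the uninjected library, too few to tell the libraries apart.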

How the results depend on the processing

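With 1 library per condition no library could be left out and no replicates could be paired. Both members stayed at least 2-fold higher in all 3 comparisons under all 6 alternatives run, which were 5 scalings and the sum over species. As normalized by the authors, so were 55.2% of the *Xenopus* miRNAs compared for Fry-MO against Lhx1-AS. Against the uninjected library, where the cluster was picked, 68.8% were with Fry-MO and 32.9% with Lhx1-AS. The interval of miR-425-5p reached down to 1.47 for Fry-MO against Lhx1-AS scaled to *Xenopus* reads. For Lhx1-AS against uninjected it held 1 with TMM (0.998 to 4.91). For Fry-MO against Lhx1-AS, miR-191 had a ratio of 2.82 when scaled to listed reads, 2.38 to *Xenopus* reads, 6.26 to mappable reads, 4.26 with TMM and 4.09 with the median of ratios, and miR-425-5p had 2.76 and 2.33 with the first 2 scalings. For Fry-MO against uninjected, miR-191 had 19.1, 13.5, 22.9, 13.0 and 13.0 in the order of these 5 scalings, and for Lhx1-AS against uninjected 6.78 and 5.68 with the first 2, where miR-425-5p had 4.78 and 4.00. These follow from the scaling alone, which moves all log2 ratios of Fry-MO to Lhx1-AS by -0.77, -1.01, 0.39, -0.17 and -0.23 in that order. Summed over species, the ratio of miR-191 to miR-425-5p in the Fry-MO library was 19.7. The number of *Xenopus* miRNAs lower with Fry-MO than with Lhx1-AS, 9 as normalized by the authors, was 1 with at least 50 reads, 1 at a fold of 4 and 21 when scaled to listed reads. For Lhx1-AS against uninjected, 26 were higher and 5 lower as normalized by the authors, 50 and 0 when scaled to listed reads, 24 and 10 with TMM, 24 and 9 with the median of ratios, 33 and 10 with no filter, 12 and 4 with at least 50 reads, 33 and 14 at a fold of 1.5, and 11 and 0 at a fold of 4. For Fry-MO against uninjected 9 were lower, against 1 at a fold of 4. For the reference list, scaling to listed reads gave a median log2 ratio of -0.67 for Fry-MO against Lhx1-AS, below 0, and of 1.71 for Lhx1-AS against uninjected, and a pseudocount of 10 gave 0.76 for Fry-MO against uninjected, as it pulls low counts together. Fewer reads limit miR-425-5p most, with 11 in the uninjected library.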
